A study of Mus musculus with 54 samples.

Results

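The 100 array features described here were those with the largest diet differences of opposite sign in the aortas of C57Bl/6 (C57) and C3H/HeJ (C3H) mice. The deposited table holds 21446 features on 54 arrays, and 20694 of them were measured on every array. For each strain the high-fat mean minus the chow mean was averaged over weeks 4, 8, 24 and 40, and the differences had opposite signs in 10929 features. These were ranked by the smaller of their 2 absolute differences, and the first 100 were taken, so the members were chosen by these measured diet differences. In all 100 the ratio was lower on high-fat diet than on chow in C57 and higher in C3H. None went the other way, although 5544 of the 10929 features had the higher high-fat mean in C57.

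Total RNA of mouse aorta was hybridised against total RNA of embryonic mice on each 2-colour array, so every group is read through its ratio to that embryo RNA. The 18 groups were C57 or C3H mice, with no transgene or deletion named in the labels: chow-fed mice at week 0, and mice kept to week 4, 8, 24 or 40 either on chow or on high-fat diet. Each group had 3 arrays, numbered 1 to 3. The labels give no age, sex or composition of the diet, and do not say whether an array held 1 aorta or a pool, so the spread between arrays may be technical. The source field lists week 10 where the titles have week 8, and the titles were followed. In whole aorta, fewer cells of a type and less RNA per cell cannot be told apart.

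The aorta wall is built of smooth muscle cells, fibroblasts and a lining of endothelium, and a high-fat diet is known to bring fatty lesions rich in macrophages into it. C57Bl/6 mice are known to be prone to such lesions and C3H/HeJ mice to resist them, which is why a strain comparison of the response to diet is of interest.

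Values are centred log ratios in the sign of the deposited table, and base 10 is likely only. The direction of the ratio is not given in the sources used here, and all signs below would turn if the embryo RNA were the numerator. Features are given by number. The platform annotation pairs most numbers with genes, but across 906 pairs of features given the same gene symbol the mean ratios correlated at -0.00268, so its names were not used and neither the aorta's cell type markers nor any pathway could be read. No RNA or protein sequence can then be tied to a feature, and none is shown.

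The feature numbers showed that most members belonged to 1 regular run. Of the 100, 98 had odd numbers between 4747 and 5755, and the other 2 were features 51 and 212. Across the 54 arrays the 98 rose and fell together: over their 4753 pairs the correlation had a median of 0.919 and ran from 0.721 to 0.987. These 98 had mean ratios from -0.906 to -0.648, with a median of -0.787 that lay above 1.75% of all features measured on every array. On an array, the SD between the 98 had a median of 0.101, while the SD of their mean between arrays was 0.345. On C3H chow number 2 at week 0 the SD between the 98 reached 0.326, with members from -1.40 to -0.0832. Counts among the 98 are not counts of separate measurements.

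The run went beyond the members. Features with a correlation over 0.9 with the mean of the 98, together with the 98 themselves, numbered 208, all odd and all between 4731 and 5803. Of the 207 steps between neighbouring numbers, 49 were of 2, 52 of 4, 49 of 6 and 55 of 8. The 110 that were not members differed by diet in the same directions, by a median of -0.249 in C57 and 0.171 in C3H. They were picked by their correlation with the members' mean on these same arrays. The shared directions follow from that choice, and nothing is read from them. In the same stretch 504 even-numbered features were measured on every array. Their correlation with the mean of the 98 had a median of -0.00495 and reached 0.626 at most, and their median diet differences were -0.000987 in C57 and -0.00638 in C3H. The platform annotation lists 0 of the 208, but 84.5% of the 516 even-numbered features of the stretch and 82.5% of its 315 other odd-numbered features.

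**Figure D1:**
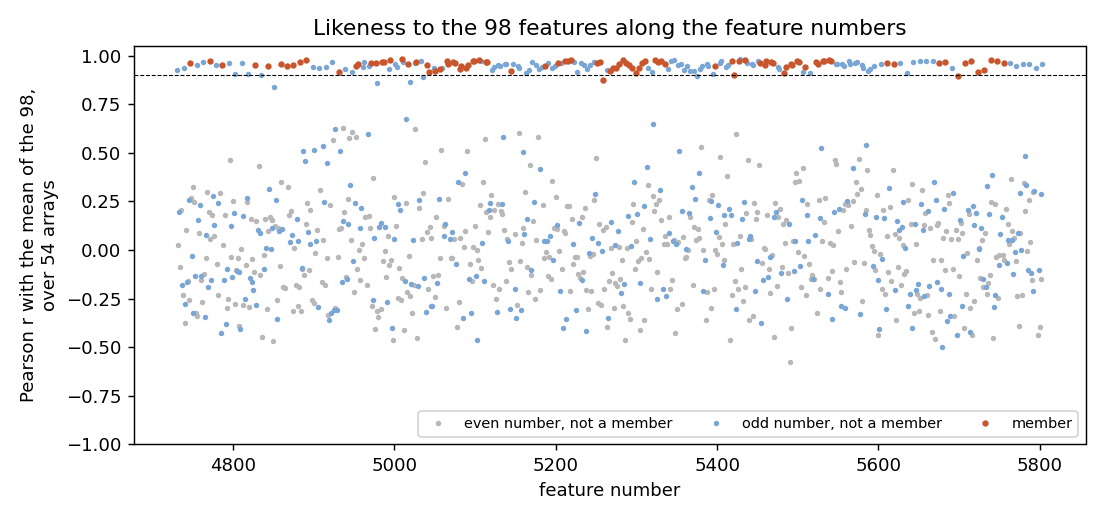
Pearson correlation with the mean of the 98 odd-numbered members over 54 arrays (y axis, no unit) against feature number (x axis, no unit), for features 4731 to 5803 measured on every array. Of the 98 members, 95 lie above the dashed line at 0.9 together with other odd-numbered features, and no even-numbered feature goes above 0.626.

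Within the threshold the order of members was set by small offsets. The highest score, the smaller absolute difference, belonged to feature 5067, which differed by -0.30 in C57 and 0.29 in C3H. Features 5723, 5307, 5203 and 5097 followed, with differences of -0.31 to -0.27 in C57 and 0.27 to 0.35 in C3H. The last members, features 4977 and 5427, both scored 0.20131. The first features outside, features 5403 and 5347, scored 0.2008 and 0.20078 and belong to the same run. Over all 100 members the mean difference was -0.256 in C57 and 0.245 in C3H. If the values are log10, these are 1.80-fold and 1.76-fold. Since the members were chosen for these differences, they are a description only.

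On C57 chow arrays, given here as the mean of the 98 odd-numbered members on arrays numbered 1, 2 and 3, the level was -1.15, -0.85 and -0.98 at week 0. It was -1.21, -0.85 and -0.0389 at week 4, and -1.08, -0.0255 and -0.63 at week 8. It was -0.81, -0.94 and -0.32 at week 24, and 0.0498, -1.06 and -1.10 at week 40. At every week after week 0, 1 of the 3 chow arrays thus stood well above the others. That array was number 3 at weeks 4 and 24, number 2 at week 8 and number 1 at week 40.

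On C57 high-fat arrays the mean was -0.71, -1.23 and -0.95 at week 4, and -0.67, -1.26 and -1.16 at week 8. It was -0.87, -0.98 and -1.04 at week 24, and -0.10, -1.11 and -1.02 at week 40. At week 40 the array numbered 1 stood near 0 on both diets. Over the 12 arrays on each diet the level on chow ran from -1.21 to 0.0498 with a median of -0.83, and on high-fat diet from -1.26 to -0.10 with a median of -0.998. The diet groups overlapped almost completely, and the distance between their means, -0.67 ± 0.46 (SD, n = 12) for chow against -0.92 ± 0.32 (SD, n = 12), was smaller than either SD.

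In C3H the chow arrays had means of -0.62, -0.89 and -0.86 at week 0, and -0.205, -0.88 and -0.86 at week 4. At week 8 they were -1.09, -0.67 and -0.94. At week 24 they were -0.82, -0.70 and -1.43, and at week 40 they were -0.86, -0.91 and -0.99. The high array at week 4 was number 1 and the low array at week 24 was number 3, and at week 40 the 3 chow arrays lay close together.

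The C3H high-fat arrays had means of -0.86, -0.0862 and -0.22 at week 4, and -0.67, -0.36 and -0.88 at week 8. They were -0.91, -0.53 and -0.85 at week 24, and -0.76, -0.44 and -0.86 at week 40. Number 2 was the highest of the high-fat arrays at all 4 weeks. At week 40 the lowest high-fat array was level with the highest chow array at -0.86, and at weeks 4, 8 and 24 the groups overlapped. Chow arrays averaged -0.86 ± 0.28 (SD, n = 12) with a median of -0.87. High-fat arrays averaged -0.62 ± 0.29 (SD, n = 12) with a median of -0.71.

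**Figure D2:**
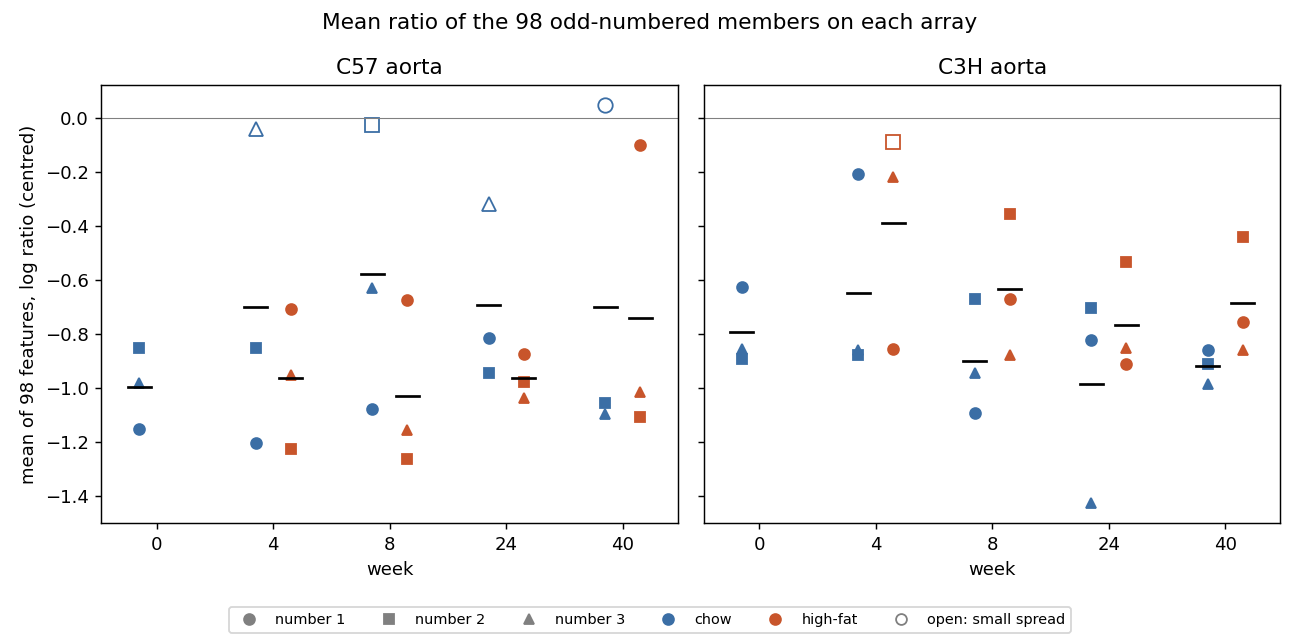
Mean centred log ratio of the 98 odd-numbered members (y axis) on each of 54 arrays by week (x axis), strain, diet and replicate number, with a bar at each group's mean of 3 arrays. Open symbols mark the 5 arrays with a small spread across features, which lie between -0.32 and 0.0498.

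Of the 9 arrays on which the run stood above -0.4, 5 also had a small spread across all features and are called compressed here. The SD across all measured features of an array was 0.16 to 0.20 on 5 arrays and 0.225 to 0.305 on the other 49. These 5 were C57 chow number 3 at weeks 4 and 24, number 2 at week 8 and number 1 at week 40, and C3H high-fat number 2 at week 4. The mean of the 98 members was between -0.318 and 0.0498 on the 5, and on the others it ran from -1.43 to -0.101 with a median of -0.873. Without the 208 features of the run, the SD was 0.162 to 0.202 on the 5 arrays and 0.228 to 0.294 on the others. Regressed on the mean of the other arrays, the same features had slopes of 0.56 to 0.806 on the 5 arrays and 0.789 to 1.20 on the others. The slope ranges overlap, and whether the small spread bears on the level of the run was not tested.

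**Figure D3:**
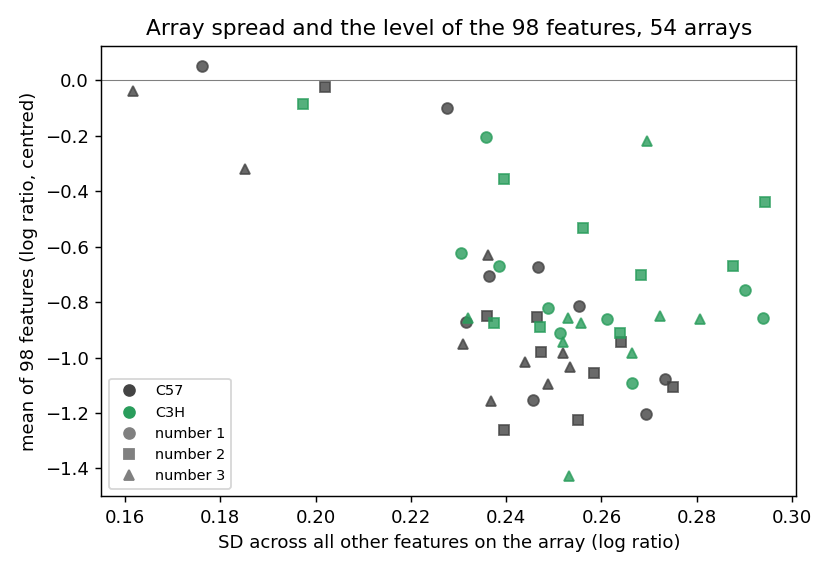
Mean centred log ratio of the 98 odd-numbered members (y axis) against the SD of the log ratio across all features outside the run of 208 (x axis) on 54 arrays, by strain and replicate number. The 5 arrays with an SD up to 0.202 lie above -0.32, and the others from 0.228 upward spread from -1.43 to -0.101.

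Which arrays were kept set the size and sign of the difference in C57. Of the 5 arrays, 4 are also the 4 highest C57 chow arrays for the run, so leaving them out had to raise the C57 difference. The members' mean diet difference in C57 went from -0.256 to 0.0319, with 78 of 100 members now higher on high-fat diet and 22 lower. In C3H it went from 0.245 to 0.208, and all 100 members stayed higher on high-fat diet. Opposite signs were kept by 22 members. The array with the next smallest SD, C57 high-fat number 1 at week 40, stood at -0.10 and had been kept. Without it as well, an alternative chosen after the data were seen, the mean in C57 was -0.0475 with 84 members lower on high-fat diet, and 84 members had opposite signs. Feature 5067, the highest ranked, went from -0.30 to 0.0017 in C57 and from 0.29 to 0.25 in C3H without the 5 arrays. The rule applied without the 5 arrays kept 3 of the 100 members, with 1 of the 208 run features in its list. Each array was also divided by its median absolute deviation across features, a measure of spread other than the SD. The mean differences were then -0.275 in C57 and 0.274 in C3H, and 93 members were kept. On the 5 arrays the run stood at -0.318 to 0.0498, and division leaves a value near 0 near 0. This alternative could thus hardly remove the C57 difference, and nothing is read from it.

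By week, the members' diet difference in C57 had medians of -0.262, -0.452, -0.255 and -0.0381 at the 4 weeks in order. Members below 0 numbered 100, 99, 100 and 79. Without the 5 arrays the medians became 0.0634, -0.173, -0.0539 and 0.337, with 17, 98, 79 and 2 members below 0. At week 40 the median was 0.0136 once high-fat number 1 was left out too. In C3H the medians were 0.257, 0.256, 0.218 and 0.20 at the same weeks, with 100, 100, 98 and 98 members above 0. Only week 4 held a compressed array, and without it the median there was 0.112. All 8 signs of week and strain were those of the rule in 77 members.

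By replicate number, the opposite pattern was seen in numbers 2 and 3. In C57, number 3 held compressed chow arrays at weeks 4 and 24, and number 2 held 1 at week 8. In C57 number 1 at week 40, the compressed chow array (0.0498) stood beside a high-fat array at -0.10. C3H number 2 held a compressed high-fat array at week 4, and C3H numbers 1 and 3 held none. The values by number are thus not independent of the compressed arrays. In C57 number 1 the members were higher on high-fat diet, with a median of 0.19 and 99 of 100 above 0, whereas numbers 2 and 3 had medians of -0.422 and -0.521 with all 100 below 0. In C3H number 1 the median was -0.0502, with 24 of 100 above 0, against 0.426 and 0.346 in numbers 2 and 3 with 99 and 100 above 0. The SD of the mean difference over the 3 numbers was 0.376 in C57 and 0.256 in C3H, which is as large as the differences themselves. No member had the rule's sign in all 3 numbers of both strains. Over all 20694 features the medians by number lay between -0.00291 and 0.00386.

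**Figure D4:**
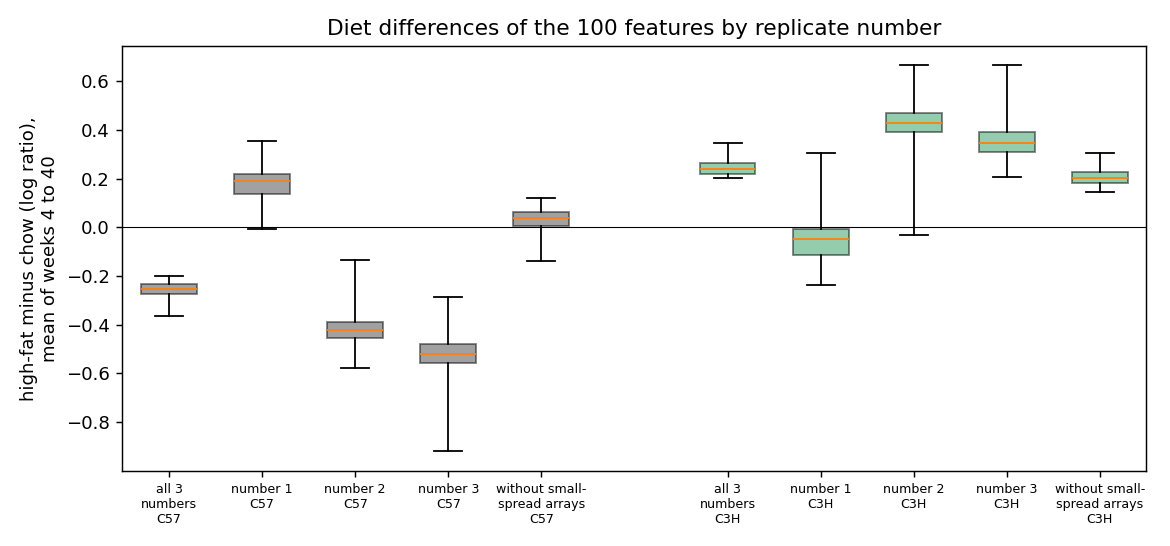
High-fat minus chow difference in log ratio averaged over weeks 4 to 40 (y axis) for the 100 members, from all arrays, from each replicate number and without the 5 arrays of small spread, in C57 (grey) and C3H (green). Boxes give the quartiles with the median, and whiskers the lowest and highest member. Number 1 lies on the other side of 0 in C57 and near 0 in C3H.

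Features 51 and 212 stood outside the run and were described for that reason, after their values were seen. They correlated with the mean of the 98 at 0.614 and 0.468 and with each other at 0.671 across the 54 arrays. In C57, feature 51 stood at -0.41 ± 0.24 (SD, n = 12) on chow, against -0.62 ± 0.28 (SD, n = 12) for high-fat arrays. In C3H it stood at -0.52 ± 0.21 and -0.26 ± 0.17 over the same numbers of arrays. In C3H its difference was 0.23, 0.26 and 0.27 in numbers 1, 2 and 3. In C57 it was 0.0835, -0.41 and -0.28. Without the 5 arrays it differed by -0.14 in C57 and 0.26 in C3H.

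The diet differences of feature 212 were -0.23 (C57) and 0.29 (C3H). By number it differed by 0.35, -0.13 and -0.92 in C57, and by 0.30, -0.0312 and 0.60 in C3H, so number 3 held most of it. On chow in C57 its arrays ran from -1.10 to 0.038 with a median of -0.33, and on high-fat diet from -1.35 to -0.21 with a median of -0.55. On chow in C3H they ran from -1.23 to -0.11, and on high-fat diet from -0.74 to 0.13. The diet groups overlapped in both strains. Without the 5 arrays it differed by -0.13 in C57 and 0.29 in C3H, and both features kept their opposite signs in the mean over weeks. At week 8 in C57 the differences were then 0.28 for feature 212 and 0.086 for feature 51, against the rule's sign. Their other C57 weeks were negative. With all arrays, feature 212 differed by 0.0462 at week 8 in C57.

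Limma, fitted to all 54 arrays and adjusted by Benjamini-Hochberg over 21179 features, called none of the 100 members for the strain-by-diet difference that the rule itself used. There 4 features (0.0189%) were called in all. The diet difference alone was called for 0 members in either strain, against 0.0472% of all features in C57 and 0.529% in C3H. These contrasts chose the members, so nothing is read from them.

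At week 0, on arrays the rule did not use, the members were lower in C57 than in C3H by a median of 0.175, and 97 of 100 had that sign, against 10974 of 20694 and a median of -0.00393 over all features. The members' median was -0.0762 without C3H number 1 and -0.0965 without C57 number 1, and -0.26 without C3H number 2. These arrays carry the same strain, chow and number labels as later chow arrays. Feature 5483 differed most, by -0.57 (SE 0.279, limma adjusted p = 0.895), and for feature 5067 the 3 C57 arrays averaged -1.06 ± 0.13 (SD), against -0.82 ± 0.17 (SD) for the 3 of C3H. Limma called 0 of 100 members, against 113 of all features (0.534%), and 1 member had an unadjusted p under 0.05. Fitted to the 6 week 0 arrays alone, limma called 0 members and 31 features in all (0.146%), and 29 members and 1389 features had an unadjusted p under 0.05. In 25 members the 3 C57 arrays all lay below the 3 C3H arrays, which held for 5.58% of all features. The 25 are not separate measurements, and the mean of the 98 itself overlapped between strains. On C57 number 2 it was -0.8512, above -0.8909 and -0.8567 on C3H numbers 2 and 3. The members' SE of 0.188 to 0.345 takes its spread from all 54 arrays, whereas the mean of the 98 had an SD of 0.15 (n = 3) in each strain at week 0.

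Against week 0, the members' mean level over weeks 4 to 40 was higher by a median of 0.328 on C57 chow, in all 100 members, and by 0.0715 on C57 high-fat diet, in 90. In C3H the median change on chow was -0.038, with 64 members below 0, and under high-fat feeding 0.204, with 87 above 0. These later levels were used by the rule, and the C57 chow arrays hold 4 of the 5 compressed arrays, so the values are given as a description.

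The strain difference averaged over both diets and weeks 4 to 40 is another contrast of the arrays the rule used, and is given as a description. It had a median of -0.0531 in the members, with 91 lower in C57, and a median SE of 0.105. Limma called 0 of the 100 members, with 0 at an unadjusted p under 0.05, against 3256 of all features (15.4%), 7.07% higher and 8.31% lower in C57. The lowest adjusted p among members was that of feature 212, which differed by -0.21 (SE 0.109, limma adjusted p = 0.22). Without the 5 arrays, 4 of them high C57 chow arrays, the median was -0.18 and limma called 3 members, features 5067, 5075 and 5287, by differences of -0.27, -0.28 and -0.25, against 13.1% of all features. A lower C57 level follows from leaving those arrays out, so nothing is read from these calls.

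From the same arrays, change among weeks 4 to 40, averaged over strains and diets, was called by limma's F test in 0 of 100 members and in 19 features in all (0.0897%), with 0 members at an unadjusted p under 0.05. Change of the strain-by-diet difference among the same weeks was called in 0 members and 0 features in all, and 0 members and 244 features had an unadjusted p under 0.05. The members' smallest unadjusted p was 0.323 in the former test and 0.503 in the latter.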

How the data were processed

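The values deposited by the authors are likely log10 ratios of the aorta and embryo channels, inferred from a cap at exactly 2 and -2. The labels name no dyes, scanner, background correction or normalization. The medians of the arrays were -0.01165 to 0.01179. Exact zeros (7895 values, 0.682%) were taken as not measured, and from each array its median over the 20694 complete features was subtracted. Limma 3.58.1 in R 4.3.3 (lmFit, contrasts.fit, eBayes, two-sided) fitted 18 group means to 21179 features with at least 2 values in each group, with calls at a Benjamini-Hochberg p below 0.05. The number of arrays limits the precision.

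Only the strain contrasts, at week 0 and averaged over weeks 4 to 40, were tried on simulated data. Of changes of 0.2, 22% were recovered at week 0 and 94% in the averaged contrast. The changed features were drawn from all 20694, whose SD over the 54 arrays had a median of 0.0878, against 0.359 in the members. The members' median SE was 0.296 at week 0 and 0.105 in the averaged contrast. These recoveries thus do not apply to the members, and the absence of calls among them says little. The simulated noise was independent between features and arrays, unlike the run and the replicate numbers here. The F tests and the strain-by-diet contrast were not simulated. The members, lists, tests and alternatives were chosen with earlier results of these data known. Features named are the 5 highest scores in each direction, the last 2 members and first 2 outside, and members called in a test. The class higher in C57 was empty. Features 1917 and 5949, which are not members, are also named, as the first 2 of the list without the 5 compressed arrays. Features 51, 212 and 5483, the run of odd numbers and the correlation of 0.9 were chosen after the values were seen.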

Additional observations from a re-analysis of the deposited data

How the results depend on the processing

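Of 15 alternatives to the rule apart from single arrays, 10 kept 70 to 100 of the 100 members. The 100 came from subtracting each replicate number's mean, which cancels in these diet differences and could not change the list. The next highest was 99, with exact zeros kept as values. The list shared 60 members in numbers 1 and 2 alone, 51 in number 3 alone, 5 with the smaller absolute limma t value as the score, 3 without the 5 arrays whose SD was below 0.2, and 10 without the 6 arrays of smallest SD, an alternative chosen after the data were seen. The mean difference in C57 reversed to 0.0319 without those 5 arrays and lay between -0.5214 and -0.0475 in the other 13 alternatives, the latter without the 6 arrays. In C3H it was 0.1912 to 0.3534 in 14. Leaving out each of 54 arrays in turn kept 62 to 100 members, with mean differences of -0.3354 to -0.1639 in C57 and 0.190 to 0.303 in C3H. The week 0 arrays do not enter the diet differences, and only their omission kept 100. Without an array of weeks 4 to 40, at most 98 members were kept. The fewest were kept without C57 chow number 1 at week 40 (62) and number 3 at week 4 (66), both compressed arrays. In the 4 limma tests 0 members were called in each of 10 alternatives and 54 omissions, except 3 for the averaged strain difference without the 5 arrays. The number as a replicate block moved all calls for the strain difference at week 0 from 113 to 441 and for the averaged one from 3256 to 6341, and called 0 members. It moved all calls for change among weeks from 19 to 252 and for the strain-by-diet difference from 4 to 134. All calls among weeks were also 42 with quantile normalization, 54 in numbers 1 and 2, 239 with arrays of 1 strain, diet and number as a random block and 6 with the contrast's own arrays. The random block left 830 for the averaged strain difference and 0 for the strain-by-diet difference, and the contrast's own arrays left 31 at week 0. The strain-by-diet calls were 11 with quantile normalization and with scaled arrays, 2 in numbers 1 and 2 and 10 without the 5 arrays. Same-numbered arrays of different groups deviated from their group means with a median correlation of 0.369, different-numbered ones at -0.242, and pairs of number 3 at 0.557, all 153 above 0. Same-numbered pairs of numbers 1 and 2 had a median of 0.256 and went down to -0.462. The main limma fits took no account of the number, whereas the diet differences by number set equally numbered arrays against each other. The cause of the changes was not tested.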

Other observations

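A second evenly numbered set lay outside the members. It held 135 features that correlated over 0.9 with 1 of their number, a set chosen after the values were seen, and 127 of the 134 steps between their numbers were multiples of 7. Its mean ratio was -0.756, close to that of the odd-numbered run, and the annotation lists 0 of the 135. On the 5 compressed arrays its mean was -0.516 to -0.327, where the odd-numbered run stood at -0.318 to 0.0498, and on the others -1.25 to -0.476. Its mean diet differences were 0.0186 in C57 and -0.0228 in C3H, smaller than those of the odd-numbered run. That run was found through members chosen for large diet differences, and the second set holds 0 members. Smaller differences there follow from that choice, and nothing is read from the contrast.

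The rule applied to numbers 1 and 2 alone gave a list of 100 with 76 features of the odd-numbered run. In number 3, which that list did not use, 86 of the 100 kept both signs, against 39% of the 10136 features with opposite signs in numbers 1 and 2. Run features repeat each other, so the 86 are not separate observations. Both parts of this split hold compressed C57 chow arrays. These are number 1 at week 40 and number 2 at week 8 in the first part, and number 3 at weeks 4 and 24 in the second. Nothing is read from the 86.

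Without the 5 compressed arrays the rule ranked feature 1917 first, with -0.25 in C57 and 0.19 in C3H, then feature 5949, with -0.18 in C57 and 0.18 in C3H. Of that list 40 were lower and 60 higher on high-fat diet in C57. Feature 1917 differed by -0.22, 0.0062 and -0.61 in C57 numbers 1, 2 and 3, and by 0.26, -0.44 and 0.64 in C3H. With the compressed arrays left out, these values rest on 3, 3 and 2 weeks in C57 and on 4, 3 and 4 in C3H. The signs of feature 1917 in number 2 were thus not those of the mean in either strain, though the C57 value was small.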
